A study of Homo sapiens with 5 samples.

Results

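BOLA2 and BOLA2B, SLX1B and SLX1A, and SULT1A4 and SULT1A3 are near-identical gene pairs of a segmental duplication on the short arm of chromosome 16, in band 16p11.2. BG4 ChIP-seq peaks at these 6 genes were compared between both copies of the duplication in C4-2 cells. C4-2, an established line, derives from a human prostate cancer, and BG4 is an antibody that recognizes folded G-quadruplexes (G4s), the stacked guanine structures that single-stranded guanine-rich DNA can form. The samples were 4 biological replicates of untreated C4-2 chromatin, fixed with formaldehyde, sheared and precipitated with BG4. The labels name no genotype, drug or time point, all samples are of this 1 line, and the input library was not analysed here. The members were chosen by name from the study's list of 1303 gene windows of 4000 bp, and those windows had in turn been selected on the peaks that they hold. The presence of a peak in a member's window is therefore a description and not a finding. The paper calls the listed G4s specific to prostate cancer, after comparing C4-2 peaks with G4 profiles of HepG2 and K562 cells. Shares and ranks among the listed windows below hold within this list and not over all C4-2 peaks. The rule gave 6 of the 1303 windows, and 4 further listed windows overlap them. The 10 windows form only 2 loci, which are called the BOLA2 copy and the BOLA2B copy below. Of the 25460 peaks in the 4 lists, 10 lay in these loci, 5 at each copy. Replicates 1 to 4 had 8036, 6192, 6805 and 4427 peaks. Reads per peak were not listed, and library depth is therefore unknown.

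The genes at these loci have well-known and unrelated roles. BOLA2 and BOLA2B encode a small BolA-family protein that works with a glutaredoxin in the handling of iron-sulfur clusters. SLX1A and SLX1B encode the nuclease subunit of the SLX1-SLX4 complex, which cuts branched DNA such as recombination intermediates. SULT1A3 and SULT1A4 encode a sulfotransferase of catecholamines such as dopamine. In human genomes, the duplicated blocks at 16p11.2 flank a segment that is recurrently lost or gained, and the copy number of BOLA2 varies between people. A short read from a stretch that is identical in both copies carries nothing that tells the copies apart. How the aligner's multi-mapping reads were treated is not given in the sources used here, and the copy number of these blocks in C4-2 was not analysed.

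The windows have the following positions on GRCh37. At the BOLA2 copy, BOLA2 (minus strand) was listed at chr16:29464285-29468285, SLX1B (plus strand) at chr16:29463822-29467822 and SULT1A4 (plus strand) at chr16:29465127-29469127. At the BOLA2B copy, BOLA2B (minus strand) was listed at chr16:30203627-30207627, SLX1A (plus strand) at chr16:30203208-30207208 and SULT1A3 (plus strand) at chr16:30203754-30207754. The overlapping windows were SLX1B-SULT1A4, RP11-231C14.3 and RP11-345J4.5 at the BOLA2 copy and SLX1A-SULT1A3 at the BOLA2B copy. The centres of the BOLA2 and BOLA2B windows were 739342 bp apart. Those of SLX1B and SLX1A were 739386 bp apart, a difference of 44 bp from the BOLA2 pair. Those of SULT1A4 and SULT1A3 were 738627 bp apart, 715 bp less than the BOLA2 pair. The SULT1A4 window was centred 842 bp above the BOLA2 centre and the SULT1A3 window 127 bp above the BOLA2B centre. The windows of the SULT1A pair were thus not centred on matching positions of the duplication, whereas those of the BOLA2 and SLX1 pairs matched to within 44 bp.

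Promoter sequences from RefSeq (GRCh38.p14, 250 bases before and 50 after a start site) were found for all 6 genes, with 9 start sites in all. They show how alike the copies are. The promoter of SLX1B was identical to that of the second SLX1A start site over 300 of 300 bases, and the promoter of SULT1A4 to that of SULT1A3 over 300 of 300. Between the second BOLA2 start site and the BOLA2B start site, the shared 273 bases were identical without exception. In GRCh38.p14 the matching start sites of the SLX1 and SULT1A pairs were 739342 bp apart. This equals the distance between the BOLA2 and BOLA2B window centres on GRCh37. No position was moved from 1 build to the other.

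A G4 motif was searched on both strands as 4 runs of at least 3 G, separated by loops of 1 to 7 bases. No promoter of BOLA2, BOLA2B, SLX1A or SLX1B held it. The promoters of SULT1A3 and SULT1A4 each held 1, on the strand opposite to the gene. Of all 35116 promoters in the table, 25.0% held at least 1 motif on either strand. With loops of up to 12 bases, the third BOLA2 start site also had matches, 2 on the opposite strand, and 37.8% of all promoters held a match. The sequences below are shown because each holds such a match, and no available promoter of the other members did. RefSeq gave BOLA2B 1 start site, and the stretch of its copy that matches the third BOLA2 start site was not examined. The copies were thus not compared for this match. Each runs 5′ to 3′ on the gene's strand, and capitals mark runs of at least 3 C, which are runs of G on the other strand. The first lies just before the third BOLA2 start site, at chr16:29454965-29455104 on the minus strand of GRCh38.p14. The others lie at positions -120 to -60 from the start sites of SULT1A4 and SULT1A3, at chr16:29459793-29459853 and chr16:30199135-30199195 on the plus strand.
BOLA2: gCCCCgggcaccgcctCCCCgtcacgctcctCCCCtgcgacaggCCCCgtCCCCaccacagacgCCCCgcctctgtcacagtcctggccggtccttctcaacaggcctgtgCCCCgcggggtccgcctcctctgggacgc
SULT1A4: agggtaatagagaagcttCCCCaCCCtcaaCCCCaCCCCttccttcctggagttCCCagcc
SULT1A3: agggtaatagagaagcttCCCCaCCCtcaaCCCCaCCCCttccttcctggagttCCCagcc

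The BOLA2 stretch has 140 bases, 75.0% G and C and 7 runs of C. The stretches of SULT1A4 and SULT1A3 are the same, with 59.0% G and C and 5 runs. The whole promoter of the third BOLA2 start site had 71.3% G and C, more than 82.7% of all promoters. The other promoters of BOLA2, BOLA2B and the SLX1 genes had 63.0% to 63.7%, and those of SULT1A3 and SULT1A4 had 50.3%. The third BOLA2 start site lay 431 bp above the SLX1B start site in GRCh38.p14. On GRCh37 the BOLA2 window centre lay 463 bp above the SLX1B centre, and the BOLA2B centre 419 bp above the SLX1A centre. The BOLA2 stretch printed above spans 432 to 571 bp above the SLX1B start site. The stretches of SULT1A4 and SULT1A3 are farther away, since those start sites lie 5380 bp above the matching SLX1 start sites. Window centres were not shown to coincide with RefSeq start sites, and a motif match does not show that a G4 folds there. The SULT1A4 and SULT1A3 centres lay only 842 bp above the BOLA2 centre and 127 bp above the BOLA2B centre. They were thus much closer to the SLX1 centres than 5380 bp. If distances are alike in both builds, the SLX1 and SULT1A centres were therefore not both these RefSeq start sites. The builds were not compared here.

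At both copies the peaks lay at the same places within the window, on either side of the window centre. One position had summits at offsets of -569 to -518 bp from the BOLA2 or BOLA2B centre, near the SLX1 centre, and is called the SLX1 side. The other had summits at offsets of 34 to 128 bp and is called the BOLA2 side. Offsets are given from the BOLA2 or BOLA2B window centre in the direction of rising coordinates, so that positive offsets lie upstream of these minus-strand genes if the centre is their start.

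In replicate 1 the BOLA2 copy had a peak on each side. The SLX1-side peak (chr16:29465529-29465957) had its summit at an offset of -547 bp and a fold enrichment of 6.48. The BOLA2-side peak (chr16:29466188-29466549) had its summit at 97 bp and a fold enrichment of 11.6. The BOLA2 side was thus the higher of the pair in this replicate. In replicate 2 a single peak of 991 bp (chr16:29465493-29466483) covered both sides, with its summit at -518 bp and a fold enrichment of 10.02. In replicate 3 a single peak of 1019 bp (chr16:29465510-29466528) also covered both sides, but with its summit on the BOLA2 side at 73 bp and a fold enrichment of 10.3. A joined peak of the list has 1 summit, so its other side has no value of its own. In replicate 4 the BOLA2 copy had a BOLA2-side peak only (chr16:29466193-29466490), with its summit at 34 bp and a fold enrichment of 5.56, and no peak of that list was narrower than its 298 bp.

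At the BOLA2B copy, replicates 1 and 2 showed the same arrangement, and replicate 3 did not. In replicate 1 it had a peak on each side. The SLX1-side peak (chr16:30204981-30205262) had its summit at -569 bp and a fold enrichment of 6.12, and the BOLA2-side peak (chr16:30205552-30205958) had its summit at 128 bp and 7.19. In replicate 2 a single peak of 933 bp (chr16:30204907-30205839) covered both sides, with its summit at -542 bp and a fold enrichment of 10.1. Both copies thus had 1 joined peak with an SLX1-side summit in this replicate. In replicate 3 the copies differed, since the BOLA2B copy had separate peaks where the BOLA2 copy had a joined one. Its SLX1-side peak (chr16:30204909-30205286) had its summit at -569 bp and a fold enrichment of 8.28, and its BOLA2-side peak (chr16:30205535-30205884) had its summit at 99 bp and 6.77. The SLX1 side was the higher in replicate 3 at the BOLA2B copy and the BOLA2 side in replicate 1. In replicate 4 the list held no peak in any window of the BOLA2B copy. Signal that did not reach the authors' threshold is not visible in a peak list.

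**Figure D1:**
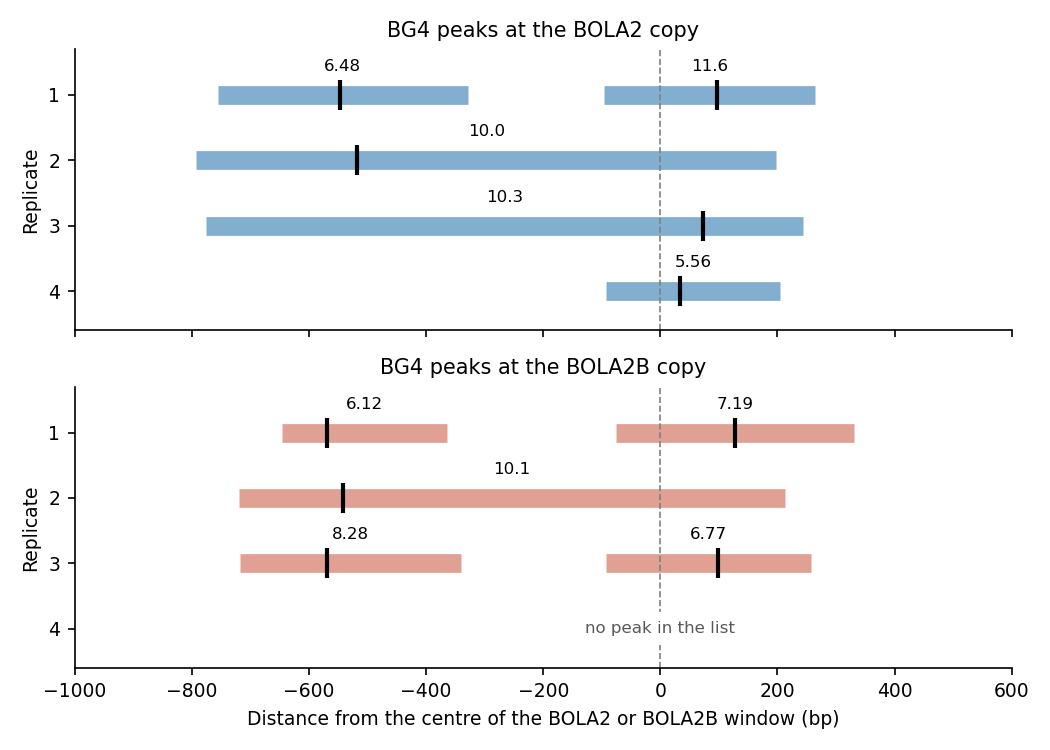
Peaks of each replicate (rows) at the BOLA2 copy (top) and the BOLA2B copy (bottom) against the distance in bp from the BOLA2 or BOLA2B window centre (dashed line). Bars span a peak, black ticks mark its summit and the numbers give its fold enrichment, from 5.56 to 11.6. Peaks sat on the same sides of the centre at both copies, and replicate 4 had none at the BOLA2B copy.

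Summits on the same side in the same replicate could be matched between the copies in 4 cases. On the SLX1 side, the BOLA2-copy summit was 22 bp above the BOLA2B-copy summit in replicate 1 and 24 bp above it in replicate 2. On the BOLA2 side, the difference was -31 bp in replicate 1 and -26 bp in replicate 3. The offsets thus differed by at most 31 bp, with a mean of -2.75 ± 29.8 bp (SD, n = 4 matched peaks of 3 replicates) and with opposite signs on the sides. Where a copy had separate peaks, their summits were 644 bp apart at the BOLA2 copy in replicate 1, 697 bp apart at the BOLA2B copy in replicate 1 and 668 bp in replicate 3. With the SLX1 window centres in place of the BOLA2 centres, the mean difference was 41.2 bp. This shift comes from the anchor alone, since the SLX1 centres lay 739386 bp apart and the BOLA2 and BOLA2B centres 739342 bp. The occupied stretch was also of like length, since the merged region of all replicates spanned 1057 bp at the BOLA2 copy and 1052 bp at the BOLA2B copy.

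Relative to the SLX1 centres, the SLX1-side summits lay at -84 and -55 bp at SLX1B and at -150, -123 and -150 bp at SLX1A. They were therefore just below the SLX1 centre at both copies. The BOLA2-side summits lay 497 to 560 bp above the SLX1B centre and 518 to 547 bp above the SLX1A centre. For SULT1A4, whose window shares every peak of the BOLA2 copy, the nearest summit was 745 bp below the centre. For SULT1A3 the nearest summit was 1 bp above the window centre, at the BOLA2-side peak of replicate 1. That centre was not shown to be a start site of SULT1A3. The listing of the SULT1A pair thus rests on the same peaks as that of the BOLA2 and SLX1 pairs, and no peak belonged to a SULT1A window alone.

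The difference in peak height between the copies missed the threshold of the test. The highest fold enrichment at the BOLA2 copy was 11.6, 10.02, 10.3 and 5.56 in replicates 1 to 4, a mean of 9.37 ± 2.64 (SD, n = 4). At the BOLA2B copy it was 7.19, 10.1 and 8.28 in replicates 1 to 3, and with 0 for replicate 4 the mean was 6.39 ± 4.43 (SD, n = 4). The BOLA2 copy was higher in 3 of 4 replicates, and in replicate 2 the difference was -0.0881, with BOLA2B the higher. The values of the copies overlap. The difference within replicates was 2.98 ± 2.52 (SD, n = 4; two-sided exact permutation test over replicates, p = 0.25). With 4 replicates there are 16 patterns of signs, and the smallest p is 2 of 16, so this design cannot reach the threshold of 0.05. Over the 2 differences tested, in height and in width, the Benjamini-Hochberg adjusted p of these exact tests was 0.5 for both. Without replicate 4, which has no BOLA2B value, the difference was 2.12. With the peaks of a window summed in place of the highest, the difference was 1.37.

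By side, the larger differences between the copies were those of the BOLA2-side peaks. The BOLA2-side fold enrichment was 11.6 at the BOLA2 copy against 7.19 at the BOLA2B copy in replicate 1, and 10.3 against 6.77 in replicate 3. On the SLX1 side the values were 6.48 against 6.12 in replicate 1 and 10.02 against 10.1 in replicate 2. The BOLA2-side differences were 4.43 and 3.51 and the SLX1-side differences 0.366 and -0.0881. In replicate 3 the BOLA2-side value of the BOLA2 copy was the only summit of a joined peak. It was set against the lower of 2 separate peaks at the BOLA2B copy. Between the highest peaks of the copies, the difference in that replicate was 2.01. The split by side was made after the values were seen and rests on 2 replicates a side, so it was not tested.

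**Figure D2:**
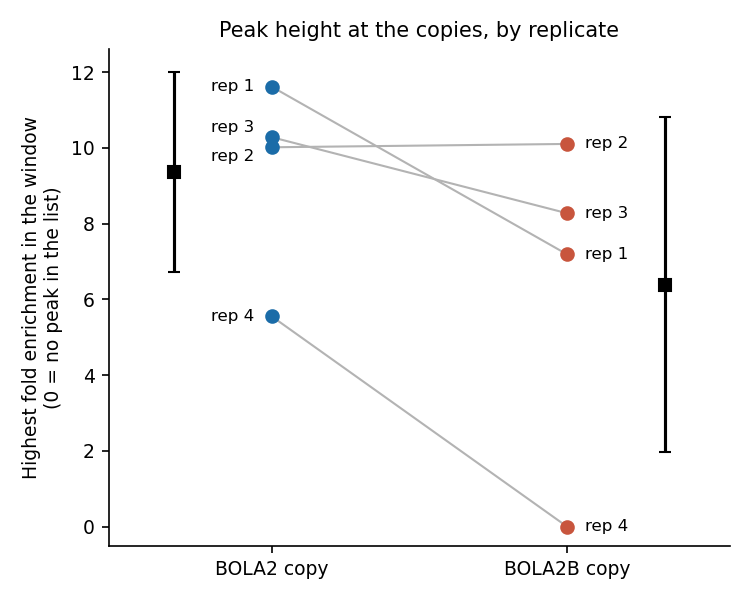
Highest fold enrichment in the BOLA2 window (left) and the BOLA2B window (right), with a line joining the values of 1 replicate and 0 for no peak in the list. Squares and bars give the mean and SD of 4 replicates, 9.37 ± 2.64 and 6.39 ± 4.43. The value fell from left to right in replicates 1, 3 and 4 and was almost level in replicate 2.

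Width followed whether the sides were joined. The highest peaks of the BOLA2 copy were 362, 991, 1019 and 298 bp wide in replicates 1 to 4, and those of the BOLA2B copy 407, 933 and 378 bp in replicates 1 to 3. The mean difference was 218 ± 370 bp (SD, n = 3; two-sided exact permutation test over replicates, p = 0.5, with 0.25 the smallest p possible). It was 6.5 bp without replicate 3, the only replicate in which 1 copy was joined and the other was not. Joined or closely spaced peaks were uncommon in the lists. Peaks of at least 900 bp made up 1.92%, 2.66%, 2.73% and 1.65% of the lists of replicates 1 to 4. Peaks with another peak of the same list within 300 bp made up 3.21%, 2.71%, 2.95% and 2.03%. The gaps between the separate peaks were 230 bp at the BOLA2 copy in replicate 1 and 289 and 248 bp at the BOLA2B copy in replicates 1 and 3.

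Among all listed windows, the members stood in the upper part by replicate support and height, which the rule had partly used. All 6 member windows had a peak in at least 3 replicates, as did 26.6% of the 1303 windows. The 3 members of the BOLA2 copy (BOLA2, SLX1B and SULT1A4) had a peak in all 4 replicates, as did 12.8% of the windows. Since the windows of a copy share their peaks, these are 2 loci and not 6 cases. All 6 windows held at least 2 peaks of 1 replicate, as did 6.45% of the windows. By mean fold enrichment over 4 replicates, with 0 for no peak, the BOLA2 copy ranked 44 of 1303 and the BOLA2B copy 168, and the median of all windows was 2.27. Within each list the member peaks ran from weak to strong. The BOLA2-side peak of the BOLA2 copy in replicate 1 was higher than 81.7% of the peaks of its list, and the only member peak of replicate 4 was higher than 22.2%. The weakest member peak by q-value was this same peak of replicate 4, with a -log10 q of 4.15, while the list of replicate 4 reached down to 1.32.

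At a given fold enrichment, the peaks of the BOLA2B copy had larger -log10 p-values than most other peaks. The comparison was made after the values were seen, with the peaks of the same list whose fold enrichment was within 5% of the member peak. For a Poisson test on reads, a larger -log10 p at the same fold goes with more reads in both the peak and its background. In replicate 1 the SLX1-side peak of the BOLA2B copy had a -log10 p of 10.3, against a median of 8.92 over 903 such peaks, and the BOLA2-side peak had 13.2 against 11.0 over 848. In replicate 2 the value was 19.5 against 17.2 over 388. In replicate 3 it was 15.5 against 12.9 over 653 on the SLX1 side and 12.1 against 9.93 over 761 on the BOLA2 side. All 5 peaks of the BOLA2B copy thus exceeded at least 98.2% of the peaks of like fold. These peaks are of 1 locus in 3 replicates and are not 5 independent cases. Reads were not counted, and the other duplicated genes were not compared in this way. At the BOLA2 copy, the peaks of replicates 1 to 3 exceeded 80.5% to 92.5% of the peaks of like fold. The peak of replicate 4 exceeded 32.2% of them, with 7.67 against 7.93. In replicate 1 the SLX1-side peaks of the copies show the contrast directly. The BOLA2B peak had the lower fold enrichment (6.12 against 6.48) and the larger -log10 p (10.3 against 10.2).

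**Figure D3:**
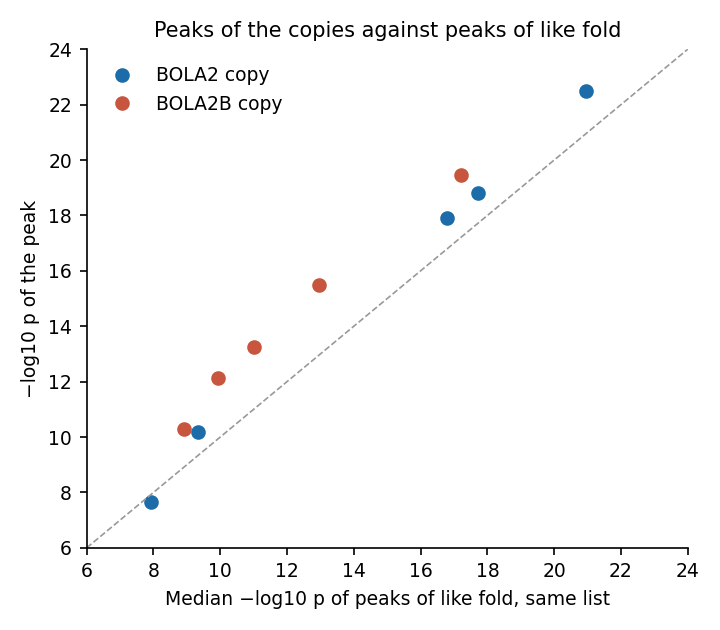
The -log10 p of each peak at the BOLA2 copy (blue) and the BOLA2B copy (red) against the median -log10 p of the peaks in the same list with a fold enrichment within 5%. The dashed line marks equal values. The 5 BOLA2B-copy peaks lie above the line, and the BOLA2-copy peak of replicate 4 (7.67 against 7.93) lies below it.

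No other peak lay within 68.4 kb of either locus, and this spacing was not compared with that of other peaks. Beyond the last window of the BOLA2 copy, no peak followed for 137.1 to 137.5 kb in the 4 replicates, and beyond the BOLA2B copy none for 138.3 to 138.8 kb. Below the BOLA2 copy the nearest peak was 160.8 kb away in replicates 1 and 2 and over 477 kb away in replicates 3 and 4. Below the BOLA2B copy it was 68.4 to 99.7 kb away. Between the copies, 17 merged regions were found, of which 6 had a peak in all 4 replicates, 4 in 3, 2 in 2 and 5 in 1. The 6 regions with all 4 replicates had a mean fold enrichment of 8.45 to 17.1, with a median of 13.0. The BOLA2 copy, with 9.37 and a peak in all 4 replicates, lay within this range and toward its lower end. The BOLA2B copy, with 6.39 and 3 replicates, lay below it, but its mean includes a 0 for replicate 4. It lay above the 4 regions between the copies with peaks in 3 replicates, whose means were 4.70 to 5.12.

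**Figure D4:**
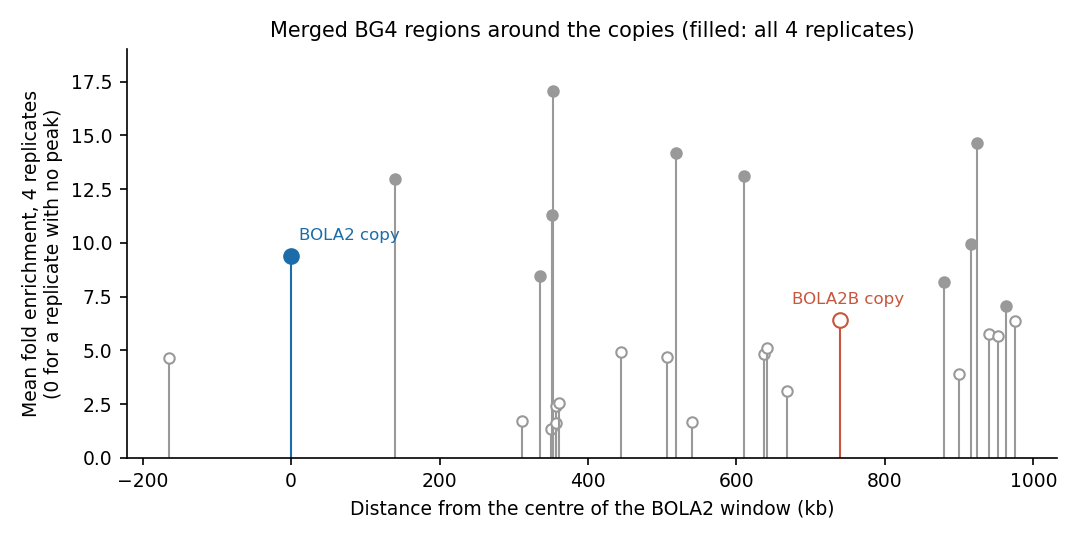
Mean fold enrichment over 4 replicates of the merged BG4 regions from 300 kb below the BOLA2 copy to 300 kb above the BOLA2B copy, against the distance in kb from the BOLA2 window centre. Filled points had a peak in all 4 replicates. The BOLA2 copy (blue, 9.37) and the BOLA2B copy (red, open, 6.39) are marked, and the strongest region between them was at 17.1.

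SULT1A1, the phenol sulfotransferase gene related to SULT1A3 and SULT1A4, is the nearest listed gene below the BOLA2 copy, at a distance of -831.339 kb. Its window (chr16:28632946-28636946) held 1 peak, found in replicate 2 at a fold enrichment of 4.68. SULT1A4 had peaks in 4 replicates and SULT1A3 in 3, but these were the peaks that their windows share with the BOLA2 and SLX1 windows. The values therefore do not compare the sulfotransferase genes themselves. The nearest listed window above the BOLA2B copy, SNORA42, was 225.5 kb away.

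Other duplicated genes of the list gave a view of how copies compare. In 6 such families with 15 genes, the number of replicates with a peak was the same or differed by 1 between copies, as it did between BOLA2 and BOLA2B. RASA4 and RASA4B, which encode a Ras GTPase-activating protein, had peaks in all 4 replicates and a mean fold enrichment of 8.23 ± 0.896 and 8.80 ± 1.92 (SD, n = 4). Their means differed by 0.572. RIMBP3, with 4.62 ± 3.24 and no peak in replicate 4, differed from RIMBP3B and RIMBP3C, with 8.41 ± 1.85 and 7.74 ± 4.05 and peaks in all 4 replicates. RIMBP3 and BOLA2B thus both missed replicate 4 while another copy had a peak there, and so did CKMT1B and TP53TG3C. Replicate 4 had the shortest list, with 4427 peaks, but copies also disagreed in replicate 1, which had the longest, with 8036. There CKMT1A, TP53TG3C, GTF2H2 and GTF2H2C had no peak while another copy of the same family did. Whether list length plays a part was not tested. MIR3180-1, MIR3180-2 and MIR3180-3, also on the short arm of chromosome 16, were much higher, with 20.7 ± 3.37, 19.8 ± 3.70 and 15.6 ± 6.03. The spread between their copies was 5.09.

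In 3 weaker families, the replicates with a peak matched only in part between copies. CKMT1A, which like CKMT1B encodes mitochondrial creatine kinase, had peaks in replicates 3 and 4, whereas CKMT1B had peaks in replicates 1 and 3. GTF2H2, GTF2H2B and GTF2H2C, which encode or resemble a subunit of the transcription factor TFIIH, had a peak in 1 replicate each, in replicates 3, 1 and 3. TP53TG3 had peaks in replicates 1, 3 and 4 and TP53TG3C in replicates 2 and 3. The difference in mean fold enrichment between BOLA2 and BOLA2B, 2.98, was larger than in the other pairs, RASA4 (0.572), TP53TG3 (0.532) and CKMT1 (0.172). In the families of 3 copies, the highest minus the lowest mean was 0.248 for GTF2H2, 3.80 for RIMBP3 and 5.09 for MIR3180. No test of these differences was made, since they are single pairs or trios and their reads can be shared between copies.

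**Figure D5:**
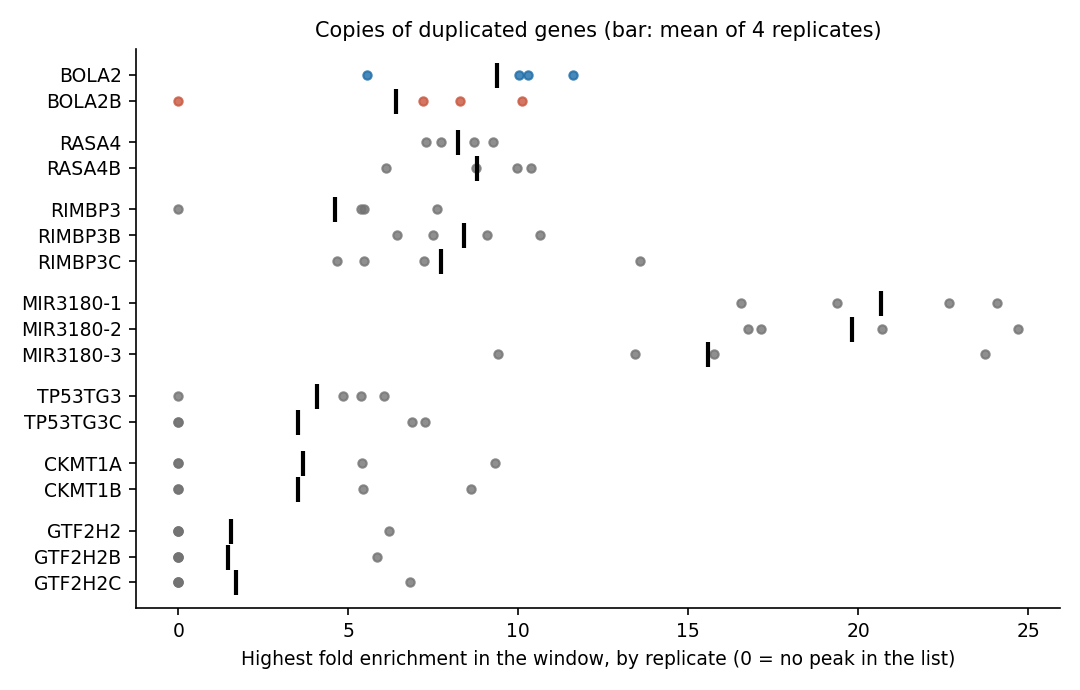
Highest fold enrichment in the window of each gene (rows), with 1 point per replicate, 0 for no peak in the list and a black bar for the mean of 4 replicates. BOLA2 (blue) and BOLA2B (red) are shown with 6 other duplicated families. BOLA2B, RIMBP3 and TP53TG3 each had 1 replicate at 0, and the copies of MIR3180 were the highest, with means of 15.6 to 20.7.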

How the data were processed

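The authors deposited 1 peak list per BG4 replicate. The submitters' processing notes name bcl2fastq 1.8.4, Bowtie2 2.2.5, SAMtools 1.11, MACS2 2.1.1 and the build hg19, while the paper's methods name hg38. Peaks on chromosome 1 reach 249201060, past its hg38 length of 248956422 bp, so positions were taken as GRCh37. The deposited fold enrichment is a ratio over local background at the summit, and the p-values and q-values were deposited as −log10. Duplicate removal and the use of input are not given in the sources used here. These steps matter here, because identical copies share reads.

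Peaks were assigned to windows by an overlap of at least 1 bp. Window positions came from the study's list of gene windows. Peaks of different replicates were merged when they overlapped. Copies were compared within replicates by exact sign-flip permutation tests. The named genes are the 6 members, the windows overlapping theirs, SULT1A1, 6 families of other duplicated genes and the nearest listed windows. The members and lists were chosen with earlier results of these data known. Replicates are those the study calls biological. Sequences came from RefSeq (GRCh38.p14), and none was read by peak coordinates. Printed stretches lie outside the transcript ends that GENCODE v44 marks as untranslated. The alternatives were merged or narrower windows, summits inside the window, a −log10 q of at least 4, other measures of height, and each replicate left out. Window counting was tested on simulated data. Python 3.11.15, numpy 2.4.6, pandas 2.3.3 and matplotlib 3.10.9 were used.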

Additional observations from a re-analysis of the deposited data

Results flagged for a closer look

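In the SULT1A1 window, 1 of the 4 replicates stood apart from the others. Replicate 2 had a peak with a fold enrichment of 4.68 and the other replicates had none, so its gap to the nearest other value was as large as the whole range, a ratio of 1.0. This ratio follows from the value of 0 given to replicates without a peak, and any window with a peak in 1 replicate has it, as GTF2H2, GTF2H2B and GTF2H2C do. It therefore says no more than that 1 replicate had a peak. None of the 6 measures examined at the BOLA2 and BOLA2B copies stood apart in this way.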

How the results depend on the processing

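Of 47 alternative values, 45 were counted as unchanged. In these, tested differences kept their direction and side of the threshold, and replicate counts stayed alike. Mean summit offsets moved by less than 29.8 bp, the SD over the 4 matched peaks. Much of this was fixed in advance, since no test could pass the threshold and a count could fall only by the replicate left out. Merged or narrower windows, summits inside the window and a −log10 q of at least 4 picked the same peaks and returned the main values. The count of 45 is therefore no measure of robustness. That SD pools both sides, whose differences had opposite signs, and is not a spread between replicates. Only the mean summit offset between the copies moved by more than this SD, both times under settings chosen after seeing the data. It was 212 bp with the highest peak of each copy in place of peaks on the same side, because the highest peaks of replicate 3 lay on different sides. With the SLX1 windows as the anchor it was 41.2 bp, because their centres lie farther apart than the BOLA2 and BOLA2B centres. Both tested differences missed the threshold under every setting, but the design is too small to pass it. With 1 replicate left out, the height difference ranged from 2.12 without replicate 4 to 3.998 without replicate 2, and with the peaks of a window summed it was 1.37. With 1 replicate left out, the width difference ranged from 6.5 bp without replicate 3 to 349.5 bp without replicate 1. Exact p-values for height ranged from 0.25 to 0.625 over all settings. The lists hold no counts, so depth limits the comparison in a way that cannot be measured here. Differences between the copies were taken within each replicate throughout.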

Other observations

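Another pair of regions with peaks in all 4 replicates lay at almost the same distance above both copies, a pattern seen only when the values were examined. The region above the BOLA2 copy was centred 140.4 kb from the BOLA2 window centre and the region above the BOLA2B copy 140.8 kb from the BOLA2B centre. Their mean fold enrichment was 13.0 ± 3.50 and 8.18 ± 2.54 (SD, n = 4). The summits lay 140508, 140497, 140509 and 140528 bp above the BOLA2 centre in replicates 1 to 4 and 140524, 141116, 140653 and 140638 bp above the BOLA2B centre. In replicate 1 the distances differed by 16 bp, and in replicate 2 by 619 bp. The fold enrichment was higher above the BOLA2 copy in each replicate, with 12.8, 12.9, 17.4 and 8.79 against 11.5, 7.61, 8.15 and 5.42. Whether these regions belong to the duplicated blocks was not established.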
